A study of Mus musculus with 48 samples.

Results

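Gene expression in the liver was compared between mice that lacked PPARα in every cell (Pparα-/-, labelled PPARaKO) and mice that lacked it in hepatocytes only (Pparαhep-/-, labelled PPARaLKO), both fed a high-fat diet (HFD). The 16 arrays were those whose labels gave genotype PPARaKO or PPARaLKO and diet HFD, 8 mice a genotype, out of 48 arrays in the series. All animals were male C57BL/6J mice of 20 weeks, and the HFD, with 60% of fat, was given for 12 weeks according to the labels, whereas the study's methods give a shorter period. Pparαhep-/- mice carried floxed Pparα alleles and a Cre transgene under the albumin promoter, so that the receptor remained in the other cells of the liver and in all other organs. Pparα-/- mice carried the deletion from the germline and were bred as a line of their own, and the wild-type (WT) mice came from a supplier, so neither deletion was compared with littermates. Differences between the breeding lines and between the deletions cannot be told apart here. The study housed all mice at thermoneutrality. The same genotypes on the control diet (CTRL, 8 mice each) and the WT mice on HFD (8 mice) were used here to place the difference between the deletions. All 48 arrays were also normalised and fitted together, so the other groups entered the estimate of spread behind each p-value. Both genotypes lacked the receptor in hepatocytes, so the comparison asks what the additional loss outside hepatocytes, or in the whole animal, went with in the liver on HFD.

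PPARα is a nuclear receptor activated by fatty acids and their derivatives. As a heterodimer with the retinoid X receptor it binds direct repeats spaced by a single base (DR1) and drives the transcription of genes of fatty acid transport, peroxisomal and mitochondrial oxidation and ketone body production. It is abundant in hepatocytes and also works in brown fat, heart, kidney, muscle and intestine, which take up and burn fatty acids themselves.

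Each array carried 59305 spots other than controls, and none was saturated on any array of the series. Of these spots, 31780 to 36437 were well above background in Pparα-/- HFD mice (median 34550) and 30654 to 36819 in Pparαhep-/- HFD mice (median 34764.5). Arrays were washed in 2 batches, with 4 and 4 of the Pparα-/- HFD arrays and 5 and 3 of the Pparαhep-/- HFD arrays in batches 1 and 2. Signals are given on the log2 scale after quantile normalisation, and each difference is Pparα-/- minus Pparαhep-/- from a limma fit with wash batch as a covariate and array weights, called at a Benjamini-Hochberg adjusted p of at most 0.05. Replicates are separate mice. The p-values set each difference against the spread between mice, estimated over all 6 groups and moderated across probes. As whole liver was measured, fewer cells of a type and less RNA per cell cannot be told apart. The hepatocyte gene albumin (Alb) gave means of 18.92 ± 0.02 and 18.87 ± 0.07 (log2, SD, n = 8 each) in the 2 genotypes and was not called (difference 0.06, adjusted p = 0.0968). For so bright a gene quantile normalisation leaves little room for a difference, so this is no measure of hepatocyte content.

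The 3 genes of the Cyp2b family that separated the genotypes most on HFD lie close together on chromosome 7, and their promoters are shown because these genes moved together. The windows run from 250 bases before to 50 bases after the start of transcription (RefSeq, GRCm38.p6, plus strand) at chr7:26173159-26173458 for Cyp2b9, chr7:26061245-26061544 for Cyp2b13 and chr7:25897408-25897707 for Cyp2b10. Capitals mark the 2 positions that differ between the first pair.
Cyp2b9: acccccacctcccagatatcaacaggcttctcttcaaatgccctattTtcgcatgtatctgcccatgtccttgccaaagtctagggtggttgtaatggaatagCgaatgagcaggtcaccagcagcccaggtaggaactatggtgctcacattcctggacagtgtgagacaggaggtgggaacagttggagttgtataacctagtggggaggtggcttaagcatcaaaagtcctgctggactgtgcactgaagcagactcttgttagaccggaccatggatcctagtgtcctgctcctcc
Cyp2b13: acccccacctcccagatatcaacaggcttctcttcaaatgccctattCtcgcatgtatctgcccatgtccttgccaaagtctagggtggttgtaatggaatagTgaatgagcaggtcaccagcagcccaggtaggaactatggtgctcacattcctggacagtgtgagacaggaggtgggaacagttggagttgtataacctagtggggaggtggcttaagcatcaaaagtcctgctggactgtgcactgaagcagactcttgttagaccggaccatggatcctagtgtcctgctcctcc
Cyp2b10: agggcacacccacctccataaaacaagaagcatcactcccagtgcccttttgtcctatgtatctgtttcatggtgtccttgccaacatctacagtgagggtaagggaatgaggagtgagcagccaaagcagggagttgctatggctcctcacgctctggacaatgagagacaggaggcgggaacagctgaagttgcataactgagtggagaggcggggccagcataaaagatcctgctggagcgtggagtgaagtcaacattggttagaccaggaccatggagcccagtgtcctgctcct
The windows of Cyp2b9 and Cyp2b13 were identical at 298 of 300 bases (99.3%). That of Cyp2b10 was not aligned with gaps, and no identity is given for it. The 60-base probes for the 3 transcripts shared no run of more than 10 bases.

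A PPARα response element could be read in the promoter of Fabp1, the liver fatty acid-binding protein, in a window of the same length at chr6:71199629-71199928 (GRCm38.p6, plus strand). Capitals mark the DR1, which lies from base -67 to base -55 on the minus strand.
Fabp1: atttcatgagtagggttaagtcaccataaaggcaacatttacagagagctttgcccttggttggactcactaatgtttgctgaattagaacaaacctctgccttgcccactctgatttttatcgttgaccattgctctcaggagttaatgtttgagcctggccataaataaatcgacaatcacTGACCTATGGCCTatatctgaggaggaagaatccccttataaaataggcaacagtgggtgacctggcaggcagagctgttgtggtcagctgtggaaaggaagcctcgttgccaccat
The motif searched was AGGNCA, any base and AGGNCA again, on both strands. It occurred in 125 of 32851 promoters of the RefSeq table (0.381%), in 1 of 22 promoters of the list of other PPARα targets, and in none of 23 mitochondrial or 17 peroxisomal target promoters. Among lipogenesis genes 1 of 25 promoters had it, that of Elovl1, which was not called between the genotypes. In the lipid droplet list 0 of 21 promoters had it. Many response elements lie outside such a window, and the letters say nothing of binding in these mice.

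Pparα itself was read by 2 probes. The brighter probe, at chr15:85632110-85632169 (mm9, as in the array files), gave log2 signals of 13.83 to 14.27 (median 14.03) in Pparα-/- HFD mice and 14.11 to 14.54 (median 14.24) in Pparαhep-/- HFD mice. WT mice on HFD lay at 14.65 to 15.24 (median 15.07). Both deletions lay below all WT mice, and the ranges of the 2 deletions overlapped. The difference between them was -0.23 ± 0.08 (SE, limma adjusted p = 0.0238), against -1.08 for Pparα-/- minus WT and -0.85 for Pparαhep-/- minus WT, which share the WT mice. That call was lost without array weights (adjusted p = 0.182), without the filter on dim probes (adjusted p = 0.0590), within either wash batch alone, and without Pparα-/- replicate 7 (adjusted p = 0.0614) or 8 (adjusted p = 0.0633). The probe at chr15:85637193-85637252 had mean log2 signals of 12.07 and 12.68 in Pparα-/- and Pparαhep-/- HFD mice, a difference of -0.61 (adjusted p = 1.90e-08). The deletion of the floxed allele removes exon 4, and the position of the probes relative to it was not settled here, so the remaining signal is no measure of functional receptor.

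Of 33323 probes tested, 10188 (30.6%) differed between Pparα-/- and Pparαhep-/- livers on HFD, 5055 higher and 5133 lower in Pparα-/- mice. Without array weights the count was 6047. Among 22029 genes, each represented by its brightest tested probe, 3728 (16.9%) were higher and 3303 (15.0%) lower. Most differences were small, with a median size of 0.32 (log2) among called probes, and 727 probes differed by at least 1 and 144 by at least 2. The 8 mice of one genotype lay entirely above or below the 8 of the other in 1546 called genes (7.02%), 774 higher and 772 lower in Pparα-/- mice. In 191 genes different probes were called in opposite directions.

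**Figure D1:**
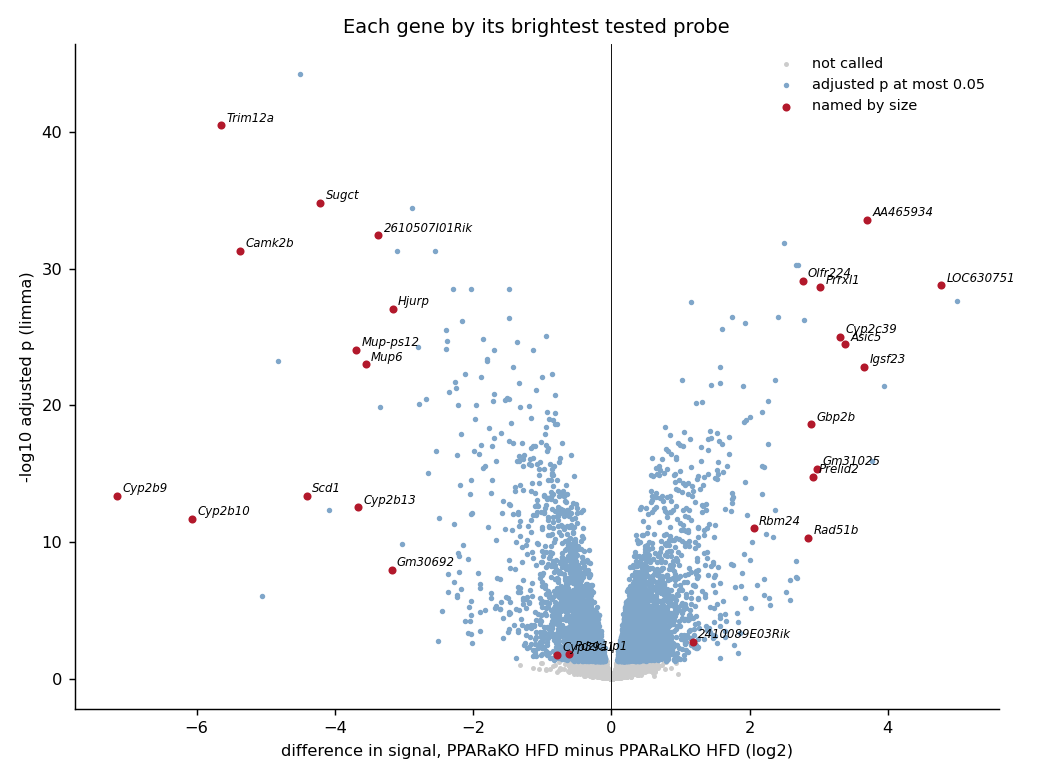
Difference in log2 signal between Pparα-/- and Pparαhep-/- mice on HFD (x axis) against -log10 of the limma adjusted p (y axis), with each point a gene. Blue points were called at 0.05, grey points were not, and red points are the named genes of largest difference, with Cyp2b9, Cyp2b10 and Trim12a at the far left and LOC630751 at the far right.

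The largest difference belonged to Cyp2b9, a P450 enzyme of steroid and drug hydroxylation that is female-biased in mouse liver and a target of the constitutive androstane receptor (CAR). Its log2 signal (probe chr7:26995607-26995666, mm9) ran from 4.91 to 5.60 (median 5.25) in Pparα-/- HFD mice, where 1 of 8 arrays was well above background. In Pparαhep-/- HFD mice it ran from 10.96 to 13.20 (median 12.46), so the groups lay far apart. WT HFD mice spread from 4.84 to 14.80 (median 10.46) and covered both deletions. The fitted difference was -7.15 ± 0.57 (SE, adjusted p = 4.23e-14), and the group means differed by -6.54 in wash batch 1 and -7.72 in wash batch 2. With the Pparα-/- mice near background, this difference is no measure of the full fold.

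Cyp2b10, the enzyme most used as a readout of CAR, followed the same pattern. Its log2 signal (chr7:26711522-26711581) was 5.51 to 6.41 (median 5.75) in Pparα-/- HFD mice and 10.45 to 12.68 (median 11.93) in Pparαhep-/- HFD mice, again with no overlap. The difference was -6.07 ± 0.55 (SE, adjusted p = 2.07e-12), with 5 of 8 Pparα-/- arrays well above background. WT HFD mice ran from 5.33 to 14.39 (median 9.98). Cyp2b13, the near copy of Cyp2b9, was not well above background on any Pparα-/- HFD array (4.76 to 5.50, median 5.15) and ran from 6.73 to 9.62 (median 8.68) in Pparαhep-/- HFD mice (chr7:26880905-26880964). Set against the lowest signal well above background, it was at least 8.69-fold lower in Pparα-/- mice (adjusted p = 2.93e-13). As these transcripts are close copies, cross-reading by the probes is possible and was not tested.

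On CTRL the Cyp2b genes were not called between the same genotypes. The differences were -1.07 for Cyp2b9 (adjusted p = 0.236) and -0.71 for Cyp2b10 (adjusted p = 0.449). Cyp2b13 was well above background on 0 Pparα-/- and 1 Pparαhep-/- array on CTRL, so no difference is given for it. On that diet the log2 signal of Cyp2b9 ran from 4.98 to 6.93 (median 5.88) in Pparα-/- and from 5.28 to 9.32 (median 7.05) in Pparαhep-/- mice. The interaction of genotype and diet, that is the HFD difference minus the CTRL difference, was called for Cyp2b9 (adjusted p = 5.07e-05), Cyp2b10 (adjusted p = 0.000118) and Cyp2b13 (adjusted p = 1.27e-05). Since 7 of 8 Pparα-/- HFD arrays for Cyp2b9 and all 8 for Cyp2b13 were not well above background, the fitted interaction of these genes does not measure its size.

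**Figure D2:**
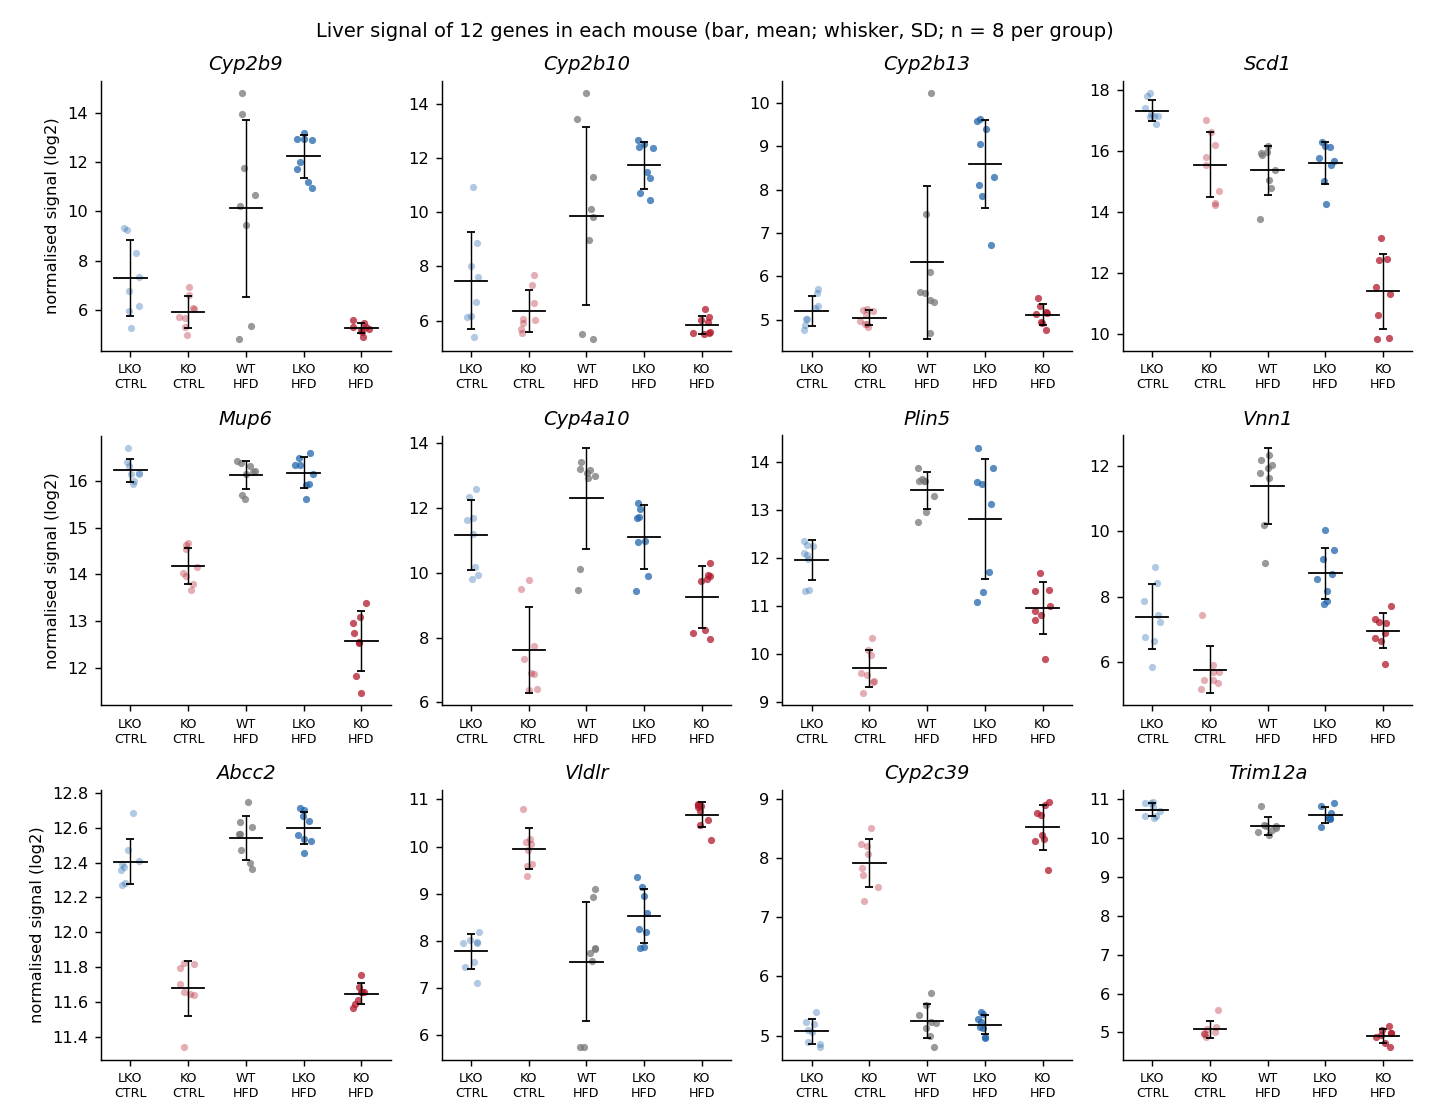
Normalised log2 signal (y axes, not starting at 0) of 12 genes in each mouse of 5 groups (x axis), with a bar at the mean and whiskers of 1 SD over 8 mice. The Pparα-/- HFD mice lie below all Pparαhep-/- HFD mice for the Cyp2b genes, Scd1, Mup6, Vnn1, Abcc2 and Trim12a, above them for Vldlr and Cyp2c39, and overlap them for Cyp4a10 and Plin5.

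The list of CAR and pregnane X receptor genes, mostly drug-metabolising enzymes and with Cyp2b10 among them, moved in both directions. Of 22 tested, 9 were higher and 5 lower in Pparα-/- mice, beside 16.9% and 15.0% of all genes, with a median of 0.17 beside 0.01, and 2 to 10 were higher and 2 to 5 lower under the other settings. Cyp2c39, which hydroxylates arachidonic and retinoic acid, was not well above background in Pparαhep-/- HFD mice (4.96 to 5.40, median 5.19) and ran from 7.79 to 8.94 (median 8.55) in Pparα-/- HFD mice, at least 8.22-fold higher. Cyp2c38 was called higher by 1.02, a call lost without array weights (adjusted p = 0.114) and within wash batch 1 (adjusted p = 0.116). Por, the electron donor of these P450 enzymes, was higher by 0.72. Cyp3a11, the main bile acid and drug oxidase of mouse liver, was lower: it ran from 9.46 to 11.17 (median 10.79) against 12.05 to 13.33 (median 12.56), without overlap, a difference of -2.05 ± 0.40 (adjusted p = 6.36e-05). The receptor genes differed little, with Nr1i3, which encodes CAR, at 0.38 and Nr1i2, the pregnane X receptor, at -0.32, both called.

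Sex-biased liver genes, which follow the pattern of growth hormone pulses, were also mixed. Among 21 female-biased genes 5 were higher and 9 lower (1 to 6 and 7 to 10 under the other settings), beside 16.9% and 15.0% of all genes, and the 3 Cyp2b genes, Cyp3a16 (-2.04) and Cyp3a41a (-1.90) led the lower ones. Sult1e1, the estrogen sulfotransferase, ran from 9.34 to 14.60 (median 12.86) in Pparα-/- and from 9.48 to 12.42 (median 10.23) in Pparαhep-/- HFD mice and was called higher by 1.83 ± 0.58 (adjusted p = 0.0131). The group means differed by -0.28 in wash batch 1 and 3.79 in wash batch 2, and the fit within wash batch 1 gave -0.48 (adjusted p = 0.656). The Sult1e1 call was also lost without array weights (adjusted p = 0.105) and without Pparα-/- replicate 7 or 8 or Pparαhep-/- replicate 6 (1.37, 1.41 and 1.55). Among 25 male-biased genes 5 were higher and 6 lower (median 0.05, and 0 to 6 and 4 to 7 under the other settings), near the 16.9% and 15.0% of all genes.

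Major urinary proteins are pheromone carriers and among the most abundant secreted products of male liver, and their genes differed in both directions. The log2 signal of Mup-ps12 was 11.66 to 13.30 (median 12.55) against 15.77 to 16.67 (median 16.22), a difference of -3.70 ± 0.15 (adjusted p = 8.33e-25). Mup6 ran from 11.46 to 13.40 (median 12.65) against 15.60 to 16.59 (median 16.24), a difference of -3.56 (adjusted p = 9.52e-24). Neither gene's mice overlapped. Also lower were Mup20 (-1.97), Mup-ps16 (-1.34) and Mup3 (-0.72). Mup1 (0.36) and Mup2 (0.71) were called higher, and Mup4, Mup5, Mup11, Mup17, Mup19 and Mup21 were not called. These genes were listed after their values were seen. A second Mup6 probe gave 0.54 and was not called (adjusted p = 0.236). The Mup genes are near-identical copies, so the gene a probe reads is uncertain.

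Transcripts of de novo lipogenesis genes were mostly lower in Pparα-/- livers. Of 22 genes tested 16 were lower and none higher, against 15.0% and 16.9% of all genes, with a median difference of -0.75 beside 0.01 over all genes, and 12 to 17 were lower under the other settings with none higher. Scd1, the desaturase that makes oleate from stearate, changed most (chr19:44469387-44469446). Its log2 signal was 9.87 to 13.17 (median 11.43) in Pparα-/- HFD mice and 14.27 to 16.29 (median 15.72) in Pparαhep-/- HFD mice, without overlap. The difference was -4.41 ± 0.35 (SE, 21.2-fold, adjusted p = 4.35e-14), and the Pparαhep-/- mice were at the level of WT mice (13.78 to 16.17, median 15.62). A second Scd1 probe was also called lower (adjusted p = 2.78e-10), but only 2 of 8 Pparα-/- arrays were well above background for it, so no size is given.

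Other lipogenic genes followed at smaller size. Elovl3, the elongase of very long saturated chains, was lower by 2.23, and its groups overlapped (7.57 to 10.53 against 9.90 to 12.26). The difference was -2.06 for Me1, the NADPH-producing malic enzyme, -1.48 for the elongase Elovl6, -1.35 for fatty acid synthase (Fasn), -1.20 for pyruvate kinase (Pklr) and -1.16 for ATP citrate lyase (Acly). Srebf1, the transcription factor gene of this pathway, was lower by 0.58. On CTRL the median of the list was -0.98 and 17 genes were called, beside 26.6% of all genes. Against WT mice on HFD, 18 of the 22 were lower and 1 higher in Pparα-/- mice, beside 47.8% of all genes called in either direction. In Pparαhep-/- mice 7 were lower and 2 higher, beside 28.6% of all genes. These 2 comparisons share the WT samples.

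Lipid droplet and lipolysis genes were lower as well, 9 of 19 with none higher (median -0.37, and -0.38 on CTRL), and 5 to 13 were lower under the other settings, beside 15.0% lower and 16.9% higher over all genes. Plin5, the droplet coat protein that docks mitochondria, ran from 9.89 to 11.69 (median 10.95) in Pparα-/- and from 11.09 to 14.29 (median 13.33) in Pparαhep-/- HFD mice, with some overlap. It was lower by 2.21 ± 0.28 (adjusted p = 1.53e-08). Plin4 was lower by 2.12 (adjusted p = 6.57e-05), Cidec, which fuses droplets, by 2.02, the acyltransferase Mogat1 by 1.50 and Plin2, the most common coat protein of hepatocyte droplets, by 0.61. Of 16 fatty acid uptake and binding genes 2 were higher and 3 lower, near the shares over all genes. Vldlr, the receptor for triglyceride-rich lipoproteins, was higher in Pparα-/- mice at 10.14 to 10.89 (median 10.79) against 7.85 to 9.35 (median 8.42), a difference of 2.01 ± 0.23 (adjusted p = 2.14e-09) with no overlap. The fatty acid translocase Cd36 was not called (0.01, adjusted p = 0.98).

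**Figure D3:**
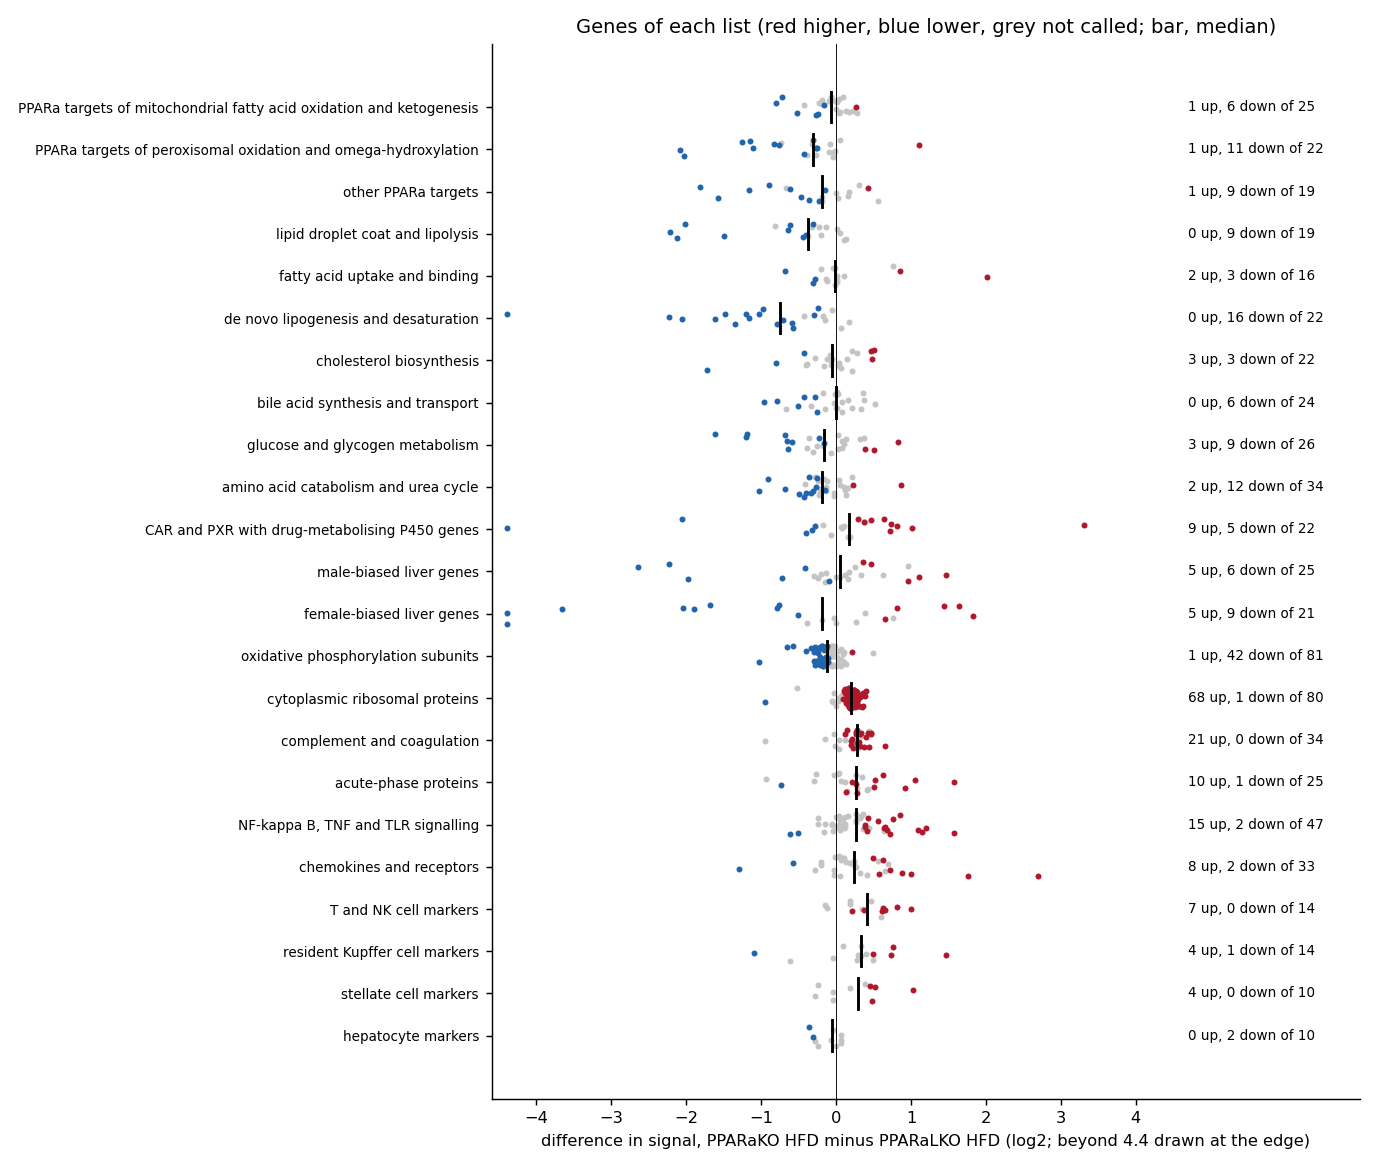
Difference in log2 signal between Pparα-/- and Pparαhep-/- mice on HFD (x axis) for each tested member of the gene lists (y axis). Red dots were called higher, blue lower and grey not called, the bar is the list's median, dots beyond the axis are drawn at its edge, and the counts stand at the right, with ribosomal proteins mostly to the right of 0 and lipogenesis to the left.

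Genes that PPARα activates were lower in Pparα-/- mice than in mice without hepatocyte PPARα in part only. In the peroxisomal and omega-hydroxylation list 11 of 22 were lower and 1 higher (median -0.31), with 4 to 11 lower under the other settings, beside 15.0% lower and 16.9% higher over all genes. Cyp4a10, the omega-hydroxylase long used as a readout of PPARα, ran from 7.96 to 10.29 (median 9.78) against 9.43 to 12.15 (median 11.34), with overlap, a difference of -2.08 ± 0.46 (adjusted p = 0.000455). WT HFD mice reached 13.42 (median 13.04). Cyp4a31 differed by -2.03 and Cyp4a14 by -1.26. Within wash batch 1 alone Cyp4a10 (-1.54, adjusted p = 0.134) and Cyp4a31 (-1.47, adjusted p = 0.143) were not called. Cyp4a12a, a male-specific member, was called higher by 1.11 (adjusted p = 0.0121), a call lost in 7 of 30 settings, among them no array weights (adjusted p = 0.198) and leaving out Pparαhep-/- replicate 6 (0.66, adjusted p = 0.169) or 7 (0.89). Cyp4a genes are close copies of each other.

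In the list of mitochondrial oxidation and ketogenesis 6 of 25 were lower and 1 higher (median -0.06). The called count fell to 2 without array weights and to 3 without Pparα-/- replicate 7, Pparα-/- replicate 8 or Pparαhep-/- replicate 6, and the shares stand beside 15.0% of all genes lower and 16.9% higher. Lower were the carnitine carrier Slc25a20 (-0.73, adjusted p = 2.23e-06) and Cpt2 (-0.53, adjusted p = 1.36e-06). Pdk4, which holds back pyruvate oxidation, was called at -0.80 (adjusted p = 0.032) but lost the call in 12 of 30 settings. Among these were no array weights (adjusted p = 0.231), wash batch 1 alone (-0.32), and leaving out Pparα-/- replicate 7 (-0.51), 1, 6 or 8 or Pparαhep-/- replicate 1 or 6. The rate-limiting Cpt1a (0.14, adjusted p = 0.445) and Acadm (0.09, adjusted p = 0.513) were not called. Among other PPARα targets 9 of 19 were lower and 1 higher (median -0.19), with 4 to 10 lower under the other settings. Vnn1, a pantetheinase, ran from 5.95 to 7.72 (median 7.05) against 7.77 to 10.03 (median 8.62), without overlap, and differed by -1.82 (adjusted p = 9.35e-06). Its WT HFD mice lay higher still, at 9.04 to 12.34 (median 11.86). Fitm1, a droplet-forming protein, was lower by 1.57, Angptl4, an inhibitor of lipoprotein lipase, by 0.62 and Fabp1, whose DR1 is printed above, by 0.15. The hepatokine Fgf21 was not called (0.56, adjusted p = 0.236).

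Of the cholesterol synthesis genes 3 of 22 were higher and 3 lower on HFD (median -0.06), and 1 and 1 without Pparαhep-/- replicate 6, beside 16.9% higher and 15.0% lower over all genes. On CTRL 18 of them were called, beside 26.6% of all genes, with a median of -0.75. The number of these genes with a called interaction ran from 0 to 10 over the settings, so no difference between the diets is stated. Sc5d, a late sterol desaturase, stood apart at 12.28 to 13.13 against 14.14 to 14.63, a difference of -1.72 (adjusted p = 2.91e-15), but its second probe was not called (-0.36, adjusted p = 0.0942). Against WT mice on HFD, 22 of 22 were lower in Pparα-/- mice and 21 in Pparαhep-/- mice, from comparisons that share the WT samples. Over all genes 47.8% and 28.6% were called in these comparisons, in either direction.

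Bile acid genes were lower in 6 of 24 cases with none higher (median -0.01, and 3 to 7 lower under the other settings), beside 15.0% lower and 16.9% higher over all genes. Abcc2, the canalicular exporter of conjugates, gave 11.57 to 11.76 (median 11.66) against 12.46 to 12.71 (median 12.60), a difference of -0.97 ± 0.06 (adjusted p = 1.26e-18) and no overlap. Cyp27a1 and the bile salt export pump Abcb11 were lower by 0.50 and 0.43. The rate-limiting enzyme Cyp7a1 was not called (0.52, adjusted p = 0.299). Glucose and glycogen genes were higher in 3 and lower in 9 of 26 cases (1 to 4 and 6 to 11 under the other settings), with glucose-6-phosphatase G6pc at -1.18 (adjusted p = 0.000861). Amino acid catabolism and urea cycle genes were higher in 2 and lower in 12 of 34 (1 and 8 without Pparαhep-/- replicate 6), with serine dehydratase Sds at -1.03 (adjusted p = 9.68e-05; -0.32 and not called with its second probe) and Bckdhb, of branched-chain oxidation, at 0.86.

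Ribosomal protein genes were mostly higher. Of 80 tested 68 were higher and 1 lower in Pparα-/- mice, against 16.9% of all genes higher, with a median of 0.19, and 36 to 69 were higher under the other settings. On CTRL the median was 0.00 (log2). Rpl10a ran from 16.27 to 16.47 (median 16.35) against 15.81 to 16.13 (median 15.99), without overlap, a difference of 0.40 ± 0.05 (adjusted p = 1.45e-08) and an interaction of 0.39 (adjusted p = 0.0016). Of its other probes 1 was called at 0.41 and 1 was not called at 0.03 (adjusted p = 0.86). The lower gene, Rps13, differed by -0.95, and its other probe gave 0.02 and was not called. The interaction was called for 31 of the 80 genes, beside 3.93% of all genes, and for 4 without array weights, 0 within wash batch 1, 1 within wash batch 2, 16 with the processed signal and 17 without the filter on dim probes. Subunits of oxidative phosphorylation went the other way, 42 of 81 lower and 1 higher (median -0.11) beside 15.0% of all genes lower, with 19 to 43 lower under the other settings. Cox7a1, a cytochrome oxidase subunit typical of muscle and brown fat, was lower by 1.04 (8.40 to 8.90 against 9.22 to 10.26).

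Inflammatory and secreted defence genes were higher in part, and their counts stand beside 16.9% higher and 15.0% lower over all genes. Complement and coagulation factors were higher in 21 of 34 cases with none lower (median 0.27, and 13 to 23 under the other settings), with coagulation factor F11 at 0.66, complement C5 (Hc) at 0.47 and C3 at 0.14. Acute-phase genes were higher in 10 and lower in 1 of 25, with 2 to 12 higher under the other settings and 5 or 6 higher when Pparα-/- replicate 4, 7 or 8 or Pparαhep-/- replicate 3, 6 or 8 was left out. Lcn2, the neutrophil gelatinase-associated lipocalin, ran from 15.37 to 16.90 (median 15.68) against 12.82 to 15.99 (median 14.01), a difference of 1.57 ± 0.57 (adjusted p = 0.0319). This call was lost in 8 of 30 settings, among them no array weights (adjusted p = 0.193) and either wash batch alone. Leaving out Pparα-/- replicate 7 or 8 or Pparαhep-/- replicate 3 or 6 (1.42 to 1.54) lost it too. NF-κB, TNF and Toll-like receptor genes were higher in 15 and lower in 2 of 47 cases (median 0.26, with 10 to 18 higher under the other settings), Lcn2 being a member of this list too. Tlr2 was higher by 1.20 (adjusted p = 9.71e-05) and Il1b by 1.14 (adjusted p = 0.000295). The endotoxin co-receptor Cd14 had mean log2 signals of 10.31 ± 0.58 and 9.22 ± 0.49 (SD, n = 8 each, limma adjusted p = 0.000644).

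Markers of some immune cells were higher beside these lists, against 16.9% of all genes. T and NK cell markers were higher in 7 of 14 cases with none lower (median 0.42, with 3 higher without array weights and 1 within wash batch 1), and the mean log2 signal of the list ran from 7.43 to 8.33 (median 7.95) in Pparα-/- and from 7.18 to 8.02 (median 7.56) in Pparαhep-/- HFD mice. Kupffer cell markers were higher in 4 and lower in 1 of 14 (7 and 1 without Pparαhep-/- replicate 5, 3 and 0 without replicate 6), with the list mean at 11.09 to 11.73 (median 11.49) against 10.46 to 11.68 (median 11.13). Timd4, an efferocytosis receptor of resident Kupffer cells, was higher by 1.47 (8.31 to 8.74 against 5.53 to 8.23), and the defining Clec4f (0.34, adjusted p = 0.102) and Cd68 (0.49, adjusted p = 0.0685) were not called. Cd163 was called lower by 1.09, a call lost in 7 of 30 settings, among them no array weights (adjusted p = 0.258), wash batch 1 alone (-0.44) and leaving out Pparα-/- replicate 8 or Pparαhep-/- replicate 6 or 7. Monocyte and neutrophil markers were higher in 3 of 12 (1 without Pparα-/- replicate 4 or 8 or Pparαhep-/- replicate 6, and 0 to 5 over all settings), with the list mean at 9.34 to 10.12 (median 9.68) against 8.88 to 9.72 (median 9.21). All 3 list means overlapped between the genotypes. Lipid-associated macrophage markers were higher in 1 of 12 (median -0.04), B cell markers in 1 of 6 and dendritic cell markers in none of 7, with 1 lower. Stellate cell markers were higher in 4 of 10 with none lower (median 0.29, and 1 to 5 higher under the other settings). The part of these cells in the inflammatory differences was not tested. Hepatocyte markers were lower in 2 of 10 (Apob and Hnf4a) with none higher, beside 15.0% of all genes lower, and in 1 without Pparαhep-/- replicate 6. A second Apob probe was not called (-0.10, adjusted p = 0.103).

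Chemokines and receptors were higher in 8 and lower in 2 of 33 (3 to 9 and 1 to 2 under the other settings), beside 16.9% higher and 15.0% lower over all genes. Ccl27a was higher by 2.69 ± 0.35 (adjusted p = 4.56e-08), at 10.68 to 11.04 (median 10.76) against 7.07 to 9.91 (median 7.52). Here the Pparαhep-/- mice departed from WT (10.70 to 11.68, median 11.42), by -3.35. Interferon-stimulated genes were higher in 5 and lower in 3 of 32 (median 0.07, and -0.46 on CTRL), with 2 to 6 and 1 to 4 under the other settings and near those shares, with Mx2 at 1.11 and Igtp at 0.80. Xaf1 was lower by 1.48 with its brightest probe and higher with another (adjusted p = 2.11e-35), for which 1 of 8 Pparαhep-/- arrays was well above background. Why its probes differ was not tested. Collagen and matrix genes were higher in 5 and lower in 6 of 36 (median -0.14), near the shares over all genes, but 1 to 6 and 1 to 8 under the other settings. Examples were Col5a3 at -1.29, whose second probe was not called (-0.24, adjusted p = 0.0548), and Tgfb1 at 0.51.

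Most of the large differences were present on both diets. Of the 144 called probes that differed by at least 2 on HFD, 138 were also called in the same direction on CTRL and 0 in the opposite one. Of all 10188 called probes, 4953 were called the same way on CTRL, 74 the opposite way, and 5161 were not called there. On CTRL 26.6% of genes were called. The differences on the 2 diets correlated at r = 0.785 across 22029 genes, which are not independent replicates, and come from separate mice. The interaction was called for 700 of the 10188 probes. Without array weights the interaction was called for 110 probes of the whole array in place of 1139, and without Pparαhep-/- HFD replicate 6 for 550.

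**Figure D4:**
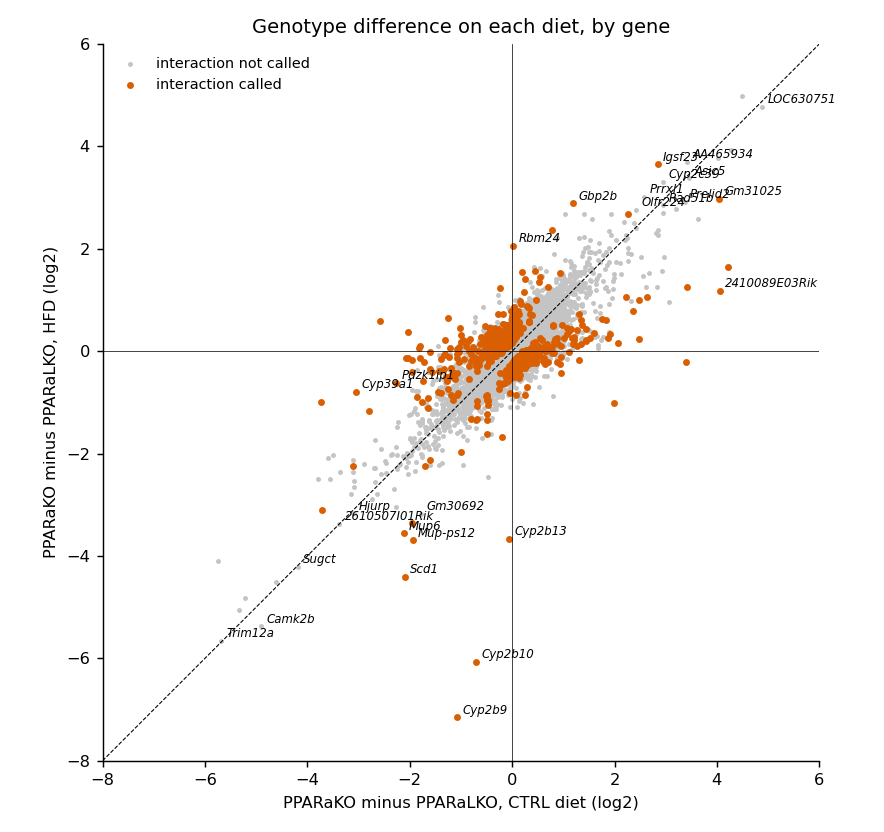
Difference in log2 signal between Pparα-/- and Pparαhep-/- mice on CTRL (x axis) and on HFD (y axis), with each point a gene and the dashed line marking equal differences. Orange points had a called interaction, and Cyp2b9, Cyp2b10, Cyp2b13 and Scd1 lie far below the line whereas Trim12a, Camk2b and Sugct lie on it or close to it.

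The genes apart on both diets included several that were dark in one genotype. Trim12a, a tripartite motif gene (chr7:111448499-111448558), was not well above background on any Pparα-/- HFD array (4.61 to 5.16, median 4.96) and ran from 10.28 to 10.91 (median 10.52) in Pparαhep-/- HFD mice, at least 34.9-fold lower, and it was dark on all 8 Pparα-/- CTRL arrays too. Camk2b, a calcium/calmodulin-dependent kinase subunit, was at least 37.3-fold lower, with a difference of -4.91 on CTRL, where 7 of 8 Pparα-/- arrays were well above background. Sugct, an acyl-CoA transferase of glutarate metabolism, differed by -4.21 on HFD and -4.18 on CTRL, and Pttg1, the securin, by -3.11 and -3.72. In the other direction LOC630751 was dark in Pparαhep-/- HFD mice and at least 19.7-fold higher in Pparα-/- mice. AA465934 was higher by 3.70 (adjusted p = 2.65e-34), Igsf23 by 3.65 and the ion channel gene Asic5 by 3.38. In each of the last 3 the mice did not overlap. Of 33323 probes, 35 were not well above background on any Pparα-/- HFD array but were bright in Pparαhep-/- HFD mice. For 25 it was the reverse. The same pattern held on CTRL for 19 of the 35 and for 10 of the 25. All were picked for their pattern on HFD.

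The size of the difference depended on diet for a few further genes. Scd1 differed by -4.41 on HFD and -2.09 on CTRL (interaction -2.31, adjusted p = 0.00871). Rbm24, an RNA-binding protein of muscle splicing, ran from 8.16 to 9.08 (median 8.70) in Pparα-/- and from 5.03 to 7.30 (median 6.62) in Pparαhep-/- HFD mice, a difference of 2.06 against 0.02 on CTRL (interaction 2.04, adjusted p = 5.07e-05). In WT HFD mice it stayed at 4.89 to 5.23. Gbp2b, an interferon-inducible GTPase, was higher by 2.89 on HFD and 1.19 on CTRL (interaction 1.70, adjusted p = 5.07e-05). Cyp39a1, an oxysterol 7-alpha-hydroxylase, differed less on HFD (-0.79, adjusted p = 0.0174) than on CTRL (-3.05), with an interaction of 2.26 (adjusted p = 0.000435). Its HFD call was lost in 8 of 30 settings, among them no array weights (adjusted p = 0.0701), wash batch 2 alone (-0.43) and leaving out Pparα-/- replicate 2 or 3 or Pparαhep-/- replicate 6 or 7 (-0.68 to -0.57). The interaction of Gbp2b and of Cyp2b9 was called under all 45 settings tried, that of Rbm24, Cyp39a1, Cyp2b10, Cyp2b13, Scd1 and Rpl10a was lost within wash batch 1, that of Scd1 and Rpl10a also within wash batch 2, and that of Cyp2b10 also without array weights.

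The share of probes called near Pparα on chromosome 15 was not above that elsewhere. Within 1 Mb of the brighter Pparα probe 16 of 56 probes were called (28.6%), the 2 Pparα probes included, and within 20 Mb 28.9%, beside 30.6% of the 33121 probes with a position. None within 1 Mb, and 1.50% within 20 Mb, were called with a difference of at least 1, beside 2.15% over all. The closest called probes of other genes gave 0.38 for Cdpf1, -0.32 for Ttc38 and 0.47 for Gtse1.

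**Figure D5:**
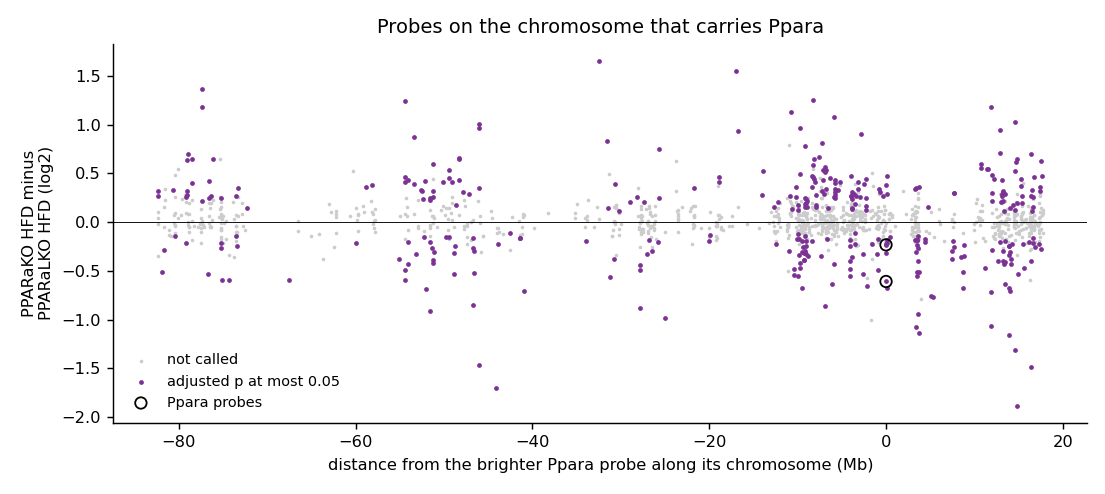
Difference in log2 signal between Pparα-/- and Pparαhep-/- mice on HFD (y axis) of probes on chromosome 15 against their distance in Mb from the brighter Pparα probe (x axis). Purple points were called and circles mark the 2 Pparα probes, around which no excess of large differences is seen.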

How the data were processed

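Total RNA from 48 livers was labelled with Cy3 and hybridised to 1-colour Agilent arrays, and spots were read by the authors with Feature Extraction 10.10.1.1 (per the file headers, mm9 probe positions). The deposited spot files hold intensity, and the median signal of each spot was used here without background subtraction. The authors also deposited a table of log2 values that were filtered, corrected for wash batch and quantile normalised, used here as an alternative.

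Signals were taken to log2, spots with an outlier mark were left out, and spots of a probe were averaged. A probe was kept if 4 or more of the 8 arrays of some group read it well above background, and arrays were quantile normalised (R 4.3.3, limma 3.58.1). The limma model had a mean for each of 6 groups, wash batch and array weights, which ran from 0.701 to 2.53 in the 16 arrays compared. P-values were adjusted over all 33323 probes by Benjamini-Hochberg and called at 0.05. 195 missing values were left out of the fits. A gene is represented by its tested probe of highest mean signal. Fitted differences are weighted and batch-adjusted, so they may depart from the difference of the group medians. A script was tested on simulated data. With arrays, the number of mice limits the precision.

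Of 17359 gene names tested, 15641 matched a RefSeq symbol and 739 a synonym. The named genes were Pparα, the 8 largest non-overlapping differences a direction among genes above background in both groups, the 3 largest a direction among genes dark in the lower group, the called member of largest difference a direction from each of 27 pathway lists, 14 marker lists and 3 families (2 for lipid, PPARα, sex-biased, drug-metabolising and NF-κB lists), and the 4 largest interactions a direction. Some genes that this rule names are not reported here. Further list members are given as examples chosen after their values were seen. The members and lists were chosen with earlier results of these data known. Lists are described by counts and medians, with no test over the list.

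Replicate numbers did not pair the mice: correlations of same-numbered deviations ran from -0.177 to 0.145 over 8 pairs, and 3 were above 0.1. Alternatives were another scaling, background correction, filter, weighting, batch handling, block, threshold and leaving out each mouse.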

Additional observations from a re-analysis of the deposited data

Results flagged for a closer look

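In 10 of 212 groups of 8 mice examined among the named genes (4.72%), 1 mouse stood apart, with a gap to the next mouse, as a share of the group's range, above Dixon's critical value for 8 samples. Chance gives about 1 in 20. In Pparαhep-/- HFD mice the gap took 0.652 of the range for Ccl27a (replicate 6 at 9.91, next 8.05), 0.695 for Cml5 (replicate 2 at 11.73), 0.631 for Mpo (replicate 5 at 7.77), 0.624 for Jchain (replicate 4 at 6.73), 0.585 for Igsf23 (replicate 7 at 7.94), 0.564 for Cd163 (replicate 8 at 6.13), 0.543 for Thy1 (replicate 3 lowest) and 0.532 for Col5a3 (replicate 8 highest). In Pparα-/- HFD mice it took 0.654 for Dnajc3 and 0.609 for 2410089E03Rik, with replicate 1 the highest in both (11.61 for the latter).

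The difference between the deletions was itself different on the 2 diets, by the interaction term of the limma fit, for 19 of 106 named genes. Over all genes the share was 3.93%. Some genes were named for their large interactions, so the count was partly set by that choice. The HFD difference lay below the CTRL difference (log2) for Cyp2b10 (-5.37), 2410089E03Rik (-2.88), Scd1 (-2.31), Mup-ps12 (-1.75), Mup6 (-1.44), Gm31025 (-1.06), Apob (-0.44) and Abcc2 (-0.29). It lay above it for Cyp39a1 (2.26), Rbm24 (2.04), Gbp2b (1.70), Pdzk1ip1 (1.65), Igsf23 (0.81), Vnn3 (0.70), Pttg1 (0.61), Rpl10a (0.39) and Rps13 (0.21). Of these, 2410089E03Rik was higher in Pparα-/- mice by 1.18 on HFD and by 4.06 on CTRL, and its HFD value includes the mouse at 11.61. Another of its probes was also called higher, by 1.36 on HFD and 4.98 on CTRL. Its remaining 2 probes were called on neither diet (0.13 and -0.06 on HFD). The interaction was also called with a negative sign for Cyp2b9 and Cyp2b13, but their fitted values (-6.08 and -3.60) rest on signals not above background and measure no size. Cyp2b9 was well above background on 1 of 8 Pparα-/- HFD arrays, and Cyp2b13 on none in both Pparα-/- groups and on 1 of 8 Pparαhep-/- CTRL arrays. The interactions of Igsf23, Gm31025 and Abcc2 were lost in 26, 27 and 31 of 45 settings. That of Apob was lost in 10, among them leaving out Pparα-/- HFD replicate 7 or 8, Pparαhep-/- HFD replicate 6 or Pparαhep-/- CTRL replicate 8, and that of Rps13 in 6. The others were lost in 0 to 3.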

How the results depend on the processing

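The 10188 probes called between the deletions on HFD (5055 higher, 5133 lower in Pparα-/- mice) became 6047 (2937 and 3110) without array weights, of which 6031 were shared, 4992 (2439 and 2553) within wash batch 1 and 6543 (3230 and 3313) within wash batch 2, where fewer mice were tested. They ran from 7957 to 10553 when a mouse was left out (3884 to 5256 higher, 4073 to 5297 lower), and were 10137 with the authors' log2 values. Fitting only the 16 arrays compared, after the same filter and normalisation, gave 9640, of which 8813 were shared. The replicate block gave 8178, of which 7146 were shared. The 1139 interaction calls became 110 without array weights, 21 and 149 within wash batches 1 and 2, 399 without the filter on dim probes and 329 at a threshold of 0.01. Leaving out a mouse, an alternative for the interaction chosen after seeing the data, gave 550 to 1408. The count moved by over 1.5 times without Pparαhep-/- HFD replicate 6 (550), Pparα-/- HFD replicates 7 (752) and 8 (747), Pparα-/- CTRL replicate 6 (741) and Pparαhep-/- CTRL replicate 8 (722). Of 106 named genes 67 kept direction and call under all settings run on them, and over all their values 2990 of 3178 did so, 187 kept the direction only and 1 reversed, Sult1e1 within wash batch 1 (-0.48). The causes were not tested. Signal over background limits the dark genes to bounds.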

Other observations

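Core clock and clock output genes were higher in 3 and lower in 5 of 18 cases in Pparα-/- HFD mice, beside 16.9% higher and 15.0% lower over all genes. The counts were 2 and 2 without Pparαhep-/- replicate 6, and 0 and 2 with the replicate block or without array weights. Dbp, a clock output factor, ran from 13.15 to 15.78 (median 15.14) against 12.96 to 15.03 (median 13.79), higher by 1.14 (limma adjusted p = 0.00109), and Arntl, the core activator, ran from 6.26 to 9.08 (median 6.72) against 6.86 to 8.83 (median 8.25), lower by 1.07 (adjusted p = 0.00544). Both ranges overlapped. Both calls were lost without array weights (adjusted p = 0.0807 for Dbp and 0.171 for Arntl), within wash batch 1 and with the replicate block, and that of Arntl also without Pparαhep-/- replicate 6 (-0.83, adjusted p = 0.0617). The hour at which each mouse was killed is not in the labels. Gdpd3, a lysophospholipase, was dark in WT HFD mice (5.55 to 5.73) and ran from 11.14 to 12.42 (median 11.96) in Pparα-/- and from 9.37 to 11.42 (median 10.93) in Pparαhep-/- HFD mice, a difference of 1.49 (adjusted p = 6.62e-06). Of the red cell markers Hbb-b2 was higher by 2.11 (13.02 to 15.23 against 11.41 to 13.38), and the other 7 tested were not called. Its close copies make the gene read uncertain.

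Probes with a called difference of at least 1 were unevenly placed. Over all positioned probes they made up 2.15%. In windows of 10 Mb with at least 30 probes (mm9) the share was 24.4% on chromosome 14 from 0 to 10 Mb (11 of 45 probes), 17.9% on chromosome 16 from 70 to 80 Mb (7 of 39, all lower, Btg3, Cxadr and Robo1 among them), 14.4% on chromosome 4 from 60 to 70 Mb (14 of 97, with the Mup genes) and 8.33% on chromosome 12 from 110 to 120 Mb (17 of 204, all higher, with the imprinted Meg3, Rian and Mirg). Shares of 14.3%, 13.3%, 10.2% and 8.46% were found on chromosomes 5 (150 to 160 Mb), 6 (60 to 70 Mb), 8 (0 to 10 Mb) and 9 (40 to 50 Mb). The windows described were chosen after their values were seen, probes of a window can read the same gene, and no test was made. All 17 probes of the chromosome 12 window and all 7 of the chromosome 16 window had the same sign on CTRL. For Adamts13, Ccl25, Xaf1 and Zfp30, 2 probes of the same gene were called in opposite directions by at least 1 each. Some of these probes are dark in the lower genotype, such as the Adamts13 probe that was higher in Pparα-/- mice.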
